A study of Homo sapiens with 10 samples.

Results

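NEAT1 and MALAT1 are neighbouring genes for long non-coding RNAs that stay in the nucleus. The data here are peaks of ChIP-seq, which recovers DNA bound by a protein with an antibody against it, for the ETS transcription factor ERG and for EWS. The peaks described are those of 7 lists that overlapped chromosome 11 from 65140000 to 65324000 (genome build hg19), a window that holds NEAT1 (65190245 to 65213011) and MALAT1 (65265233 to 65273940). Of the 30301 peaks of the 7 lists, 87 lay in this window. The window was chosen by its position, knowing the peaks that the 7 lists hold in it, so its peak counts are a description and carry no test.

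The samples came from 2 established human lines. VCaP, from prostate cancer and grown without added treatment, gave 1 ERG list and 1 EWS list. RWPE1, from normal prostate, stably expressed wild-type ERG or ERG P436A, a point mutant, under puromycin and hygromycin selection. Cells with wild-type ERG gave 2 ERG lists, replicate 1 and replicate 2, and 1 EWS list. Cells with ERG P436A gave 1 ERG and 1 EWS list. The labels do not name the promoter that drives the introduced ERG, do not say whether each RWPE1 line is a clone, and do not say whether the replicates came from separate cultures. Only wild-type ERG in RWPE1 had a replicate, so no other difference below has a replicate check. The lists give positions but no height or read depth, so a missing peak shows only that none was called.

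NEAT1 RNA is the scaffold of paraspeckles, nuclear bodies that form where the RNA is made and that hold RNA-binding proteins. MALAT1 RNA is very abundant in many cell types and gathers in nuclear speckles, which hold splicing factors. Both genes are transcribed from their lower to their higher coordinate. ERG belongs to the ETS family, whose members bind DNA at a GGAA core, and it is often overexpressed in prostate cancer through gene fusion. EWS is an RNA-binding protein of the FET family. In the gene table at hand, RefSeq on GRCh38.p14, used for names and order only, SLC25A45 precedes NEAT1. MIR612, FAUP4, ENEMAL and LINC02736 are listed between NEAT1 and MALAT1. TALAM1, an antisense RNA, and MASCRNA, a small RNA from the end of the MALAT1 transcript, are listed after it. ChIP peaks carry no strand, so a peak over MALAT1 cannot be told apart from one over its antisense partner.

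The lists differed widely in how much of the window they covered. VCaP ERG had 30 peaks in it and VCaP EWS had 51, which together made 93.1% of the 87. Their lists held 7712 and 9500 peaks, against 1901 and 1953 for the wild-type ERG replicates, 5703 for EWS of the same cells, 1746 for ERG P436A and 1786 for EWS with ERG P436A. RWPE1 gave the other 6: 1 in wild-type ERG replicate 1, 1 in replicate 2 and 4 in the EWS list of the same cells. The lists of ERG P436A and of EWS with ERG P436A had 0. With each list reduced to its first 1746 peaks in listed order, which is not documented as a ranking, VCaP ERG had 5 and VCaP EWS 18. RWPE1 EWS with wild-type ERG then had 2. VCaP ERG peaks covered 36597 bp (19.9% of the window), VCaP EWS peaks 24530 bp (13.3%), and EWS peaks of RWPE1 with wild-type ERG 6300 bp (3.42%). The single peaks of the ERG replicates covered 722 bp and 510 bp. The map of the window shows that the VCaP peaks ran along all of it, whereas each RWPE1 peak lay at or just before one of the 2 genes.

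**Figure D1:**
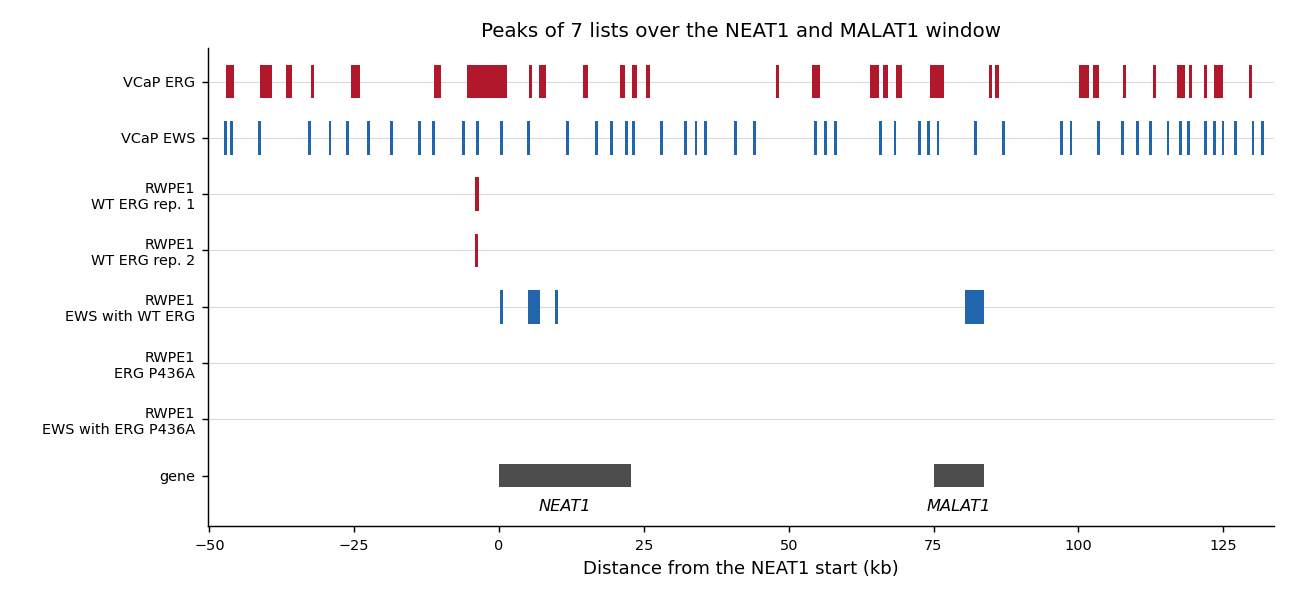
Peaks of the 7 lists (rows; red for ERG, blue for EWS) along the window, with distance from the NEAT1 start in kb on the horizontal axis and the genes as grey bars. VCaP lists had 30 and 51 peaks, RWPE1 lists with wild-type ERG had 1, 1 and 4, and the rows of the P436A lists are empty.

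These counts were set beside all 16479 windows of the same length on chromosomes 1 to 22 and X. A VCaP ERG peak was present in 22.1% of such windows and 30 or more in 0.103% (17 windows). A VCaP EWS peak was present in 19.4%, and 51 or more in 0.0303% (5 windows). For EWS with wild-type ERG in RWPE1 the share with at least 1 peak was 20.9%, and that with 4 or more was 1.41%. The ERG replicates each had a peak in few windows, 8.68% for replicate 1 and 8.61% for replicate 2. A window without a peak was the usual case for both P436A lists, since ERG P436A had a peak in 7.88% of windows and EWS with ERG P436A in 8.90%. All 5 lists that had a peak here had one in 50 windows (0.303%), and in 16 of those 50 (32.0%) both P436A lists were without a peak.

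**Figure D2:**
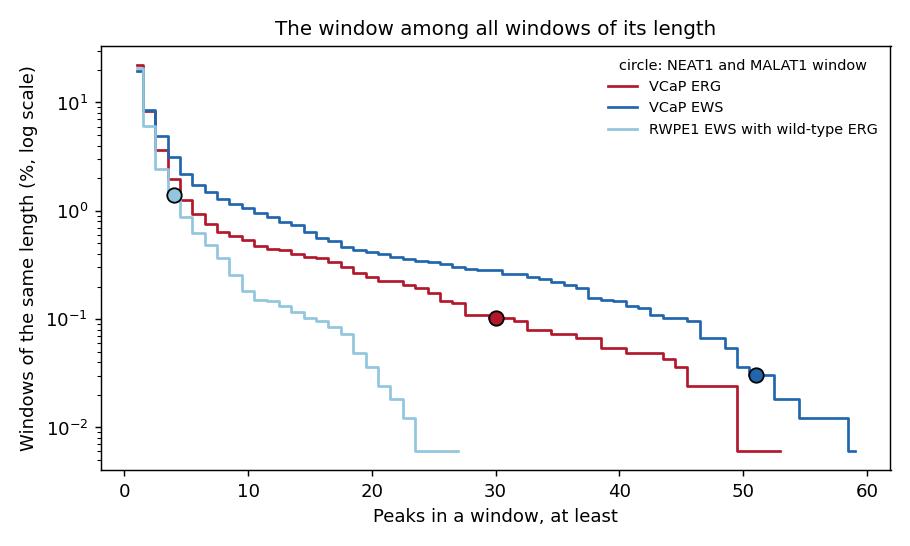
Share of the 16479 windows of the same length, in percent on a log scale, that held at least the number of peaks on the horizontal axis, for the 3 lists with more than 1 peak here. Circles mark the NEAT1 and MALAT1 window, with 30 VCaP ERG, 51 VCaP EWS and 4 RWPE1 EWS peaks.

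In VCaP the window is part of a stretch of chromosome 11, from 63 to 68 Mb, that is dense in peaks throughout. VCaP ERG had 0.163 peaks per kb in the window and 0.140 in the rest of these 5 Mb. VCaP EWS had 0.277 per kb in the window and 0.212 in the rest. Peaks were thus frequent in the megabases around the 2 genes too, and the part of this regional density in the VCaP counts was not tested. In RWPE1 the same stretch held fewer peaks than in VCaP, from shorter lists. With wild-type ERG, it held 7 of the 1901 replicate 1 peaks and 9 of the 1953 replicate 2 peaks. EWS of the same cells had 6 of its 5703 peaks in it. The P436A cells gave 5 of 1746 ERG peaks and 1 of 1786 EWS peaks. Whether these counts in the 5 Mb were low for lists of such length was not tested. Of the 6 EWS peaks found there with wild-type ERG, 4 overlapped the body of NEAT1 or MALAT1. These genes make up 22.767 kb and 8.708 kb of the 5 Mb. The window was chosen with these peaks known, so this count carries no test.

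The ERG site found in both RWPE1 replicates lay before NEAT1. In RWPE1 with wild-type ERG, the peak of replicate 1 ran from 65186081 to 65186802 (722 bp) and that of replicate 2 from 65186113 to 65186622 (510 bp). The whole of the replicate 2 peak lay within that of replicate 1, and the centres were 74.0 bp apart. The replicate 1 peak ended 3443 bp and the replicate 2 peak 3623 bp before the NEAT1 start, so neither reached it. In VCaP a single ERG peak of 6957 bp, from 65184733 to 65191689, covered both of these and went on across the NEAT1 start to 1444 bp inside the gene. It was listed as number 14 of the 7712 VCaP ERG peaks, an order not documented as a ranking, and was their 167th widest. A VCaP EWS peak, from 65186214 to 65186708, stood over the same site, with its centre 19.5 bp from that of replicate 1 and 93.5 bp from that of replicate 2.

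Few sites were in all 4 of these lists. A VCaP ERG peak lay at 8.57% of replicate 1 and 4.56% of replicate 2 peaks, and a VCaP EWS peak at 1.32% and 3.69%. Of the 1901 replicate 1 peaks, 115 (6.05%) overlapped a replicate 2 peak, 21 (1.10%) a replicate 2 and a VCaP ERG peak, and 8 (0.421%) a replicate 2 and a VCaP EWS peak. The site before NEAT1 was the 1 peak (0.0526%) that overlapped all 3, and it was singled out after these values were seen. The part of VCaP ERG in this rests on the width of its peak: with every peak set to 500 bp around its centre, or with centres required to lie within 500 bp, 0 sites had all 4. With peaks set to 500 bp both replicates and VCaP EWS still overlapped here, 1 of 8 such sites.

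ERG P436A had no peak at this site. Its nearest peaks ended 142.395 kb before the NEAT1 start and began 703.723 kb after it. Of the 115 replicate 1 peaks shared with replicate 2, 61 had no ERG P436A peak, so more of the 115 lacked one than had one. The site before NEAT1 was thus not unusual among them in this. These 61 were 3.21% of all 1901 replicate 1 peaks, shared or not. Of all peaks, 11.6% of replicate 1 and 6.81% of replicate 2 overlapped one of ERG P436A. Of the 21 shared with replicate 2 and VCaP ERG, 6 had no ERG P436A peak and 15 had one. ERG P436A had 1 list, and whether it bound here below the authors' threshold was not tested. Its peaks were at most 501 bp wide, against up to 5574 bp in replicate 1 and 5985 bp in replicate 2. Whether these lists were made in the same way is not known, so a count of 0 beside a wild-type peak is not shown to be a loss of binding.

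At the NEAT1 start itself, taken as 1000 bp on each side, EWS was listed in both cell lines. The VCaP EWS peak ran from 65190407 to 65190901 and that of RWPE1 with wild-type ERG from 65190372 to 65190860. They shared 454 bp and began 162 bp and 127 bp after the annotated start, and their centres were 38.0 bp apart. ERG was listed there in VCaP, by the wide peak above, but in neither RWPE1 replicate. This contrast changed with the setting: with peaks set to 500 bp VCaP ERG had 0 peaks at the start, and with 5000 bp on each side both replicates had 1. EWS with ERG P436A had no peak there: its nearest began 468.719 kb after the start, and the nearest before it lay 8959.68 kb away. In the wild-type EWS list 70 of 5703 peaks (1.23%) overlapped a VCaP EWS peak, and 80 (1.40%) one of EWS with ERG P436A. A VCaP ERG peak lay at 0.526% of that list. Of the 4 in this window, 3 overlapped a VCaP EWS peak, 2 a VCaP ERG peak and 0 one of EWS with ERG P436A.

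The body of NEAT1 held peaks of 3 lists. VCaP ERG had 5 peaks over its 22767 bp, including the one at the start, and covered 21.1% of it. The 4 others were between 545 and 1229 bp wide, and the last ended 1065 bp before the end of the gene. VCaP EWS had 6 peaks, which covered 13.1%. EWS of RWPE1 with wild-type ERG had 3, which covered 12.8% and lay in the first 5 of 10 equal parts of the gene. The RWPE1 peaks were in parts 1, 3, 4 and 5, and the VCaP EWS peaks in parts 1, 3, 6, 8, 9 and 10.

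Within the NEAT1 body 1 stretch was again common to both lines. The EWS peak of RWPE1 with wild-type ERG from 65195291 to 65197265 was 1975 bp wide, the 19th widest of its list, where 2.03% of peaks were wider than 1000 bp. It overlapped a VCaP EWS peak (65195071 to 65195571) by 281 bp and the VCaP ERG peaks from 65195413 to 65195957 and from 65197139 to 65198367. Like the peak at the start, it was in EWS of RWPE1 and in both VCaP lists. Only 6 of the 5703 wild-type EWS peaks (0.105%) had both, and 2 of them were these 2 in NEAT1. The other 4 lay on chromosome 4 from 190501227, on chromosome 5 from 98106812, on chromosome 11 from 63924755 and on chromosome 13 from 111538197. The one on chromosome 11 was in the same dense stretch from 63 to 68 Mb. VCaP ERG and EWS peaks covered 19.9% and 13.3% of this window, and the part of that density in these overlaps was not tested. With all peaks set to 500 bp, 2 such sites were left, 0 of them in this window. The third EWS peak in NEAT1, from 65199940 to 65200382, overlapped no peak of another list.

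MALAT1 showed a different arrangement. At its start, VCaP ERG had a peak of 2472 bp, from 65264542 to 65267013, which began 691 bp before the start and ended 1780 bp after it. It was the 381st widest VCaP ERG peak, and 6.19% of that list was wider than 2000 bp. VCaP EWS had 2 peaks within 1000 bp of the start. The first (65264101 to 65264569) ended 664 bp before the start and touched the ERG peak by 28 bp. The second (65265760 to 65266246) began 527 bp after it and lay wholly inside the ERG peak. No RWPE1 list had a peak within 1000 bp of the MALAT1 start. The nearest ERG peak of either replicate was the one before NEAT1, 78.431 kb away in replicate 1.

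The table of promoters at hand, from RefSeq on GRCh38.p14, holds 2 starts of MALAT1, 1307 bases apart, and each is shown from 250 bases before to 50 bases after the start, since VCaP ERG and EWS peaks lay at the start of this gene. Capitals mark the ETS core GGAA, or TTCC where it is on the other strand. The first is chr11:65497488-65497787 and the second chr11:65498795-65499094, both on the plus strand, and neither was placed against the hg19 peaks.
MALAT1 first start: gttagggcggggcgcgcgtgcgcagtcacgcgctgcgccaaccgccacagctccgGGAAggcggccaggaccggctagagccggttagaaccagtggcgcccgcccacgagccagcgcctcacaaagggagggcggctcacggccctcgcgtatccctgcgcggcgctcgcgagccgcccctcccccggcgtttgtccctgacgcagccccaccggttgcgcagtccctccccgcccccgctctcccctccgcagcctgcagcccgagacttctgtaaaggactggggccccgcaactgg
MALAT1 second start: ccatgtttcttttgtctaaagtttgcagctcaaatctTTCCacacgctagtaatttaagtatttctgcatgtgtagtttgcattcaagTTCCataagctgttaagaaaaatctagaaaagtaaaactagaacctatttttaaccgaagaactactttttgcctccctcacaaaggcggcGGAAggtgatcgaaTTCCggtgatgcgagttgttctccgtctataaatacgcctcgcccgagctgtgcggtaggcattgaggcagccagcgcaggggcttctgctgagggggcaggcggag
The first start had 1 match to GGAA on either strand and 73.7% G and C, and the second had 4 matches and 46.0%. A match was common: 95.5% of the 35116 promoters of this length in the table had at least 1, with a median of 3. The longer motif CCGGAAG, which contains GGAA, was in neither sequence on either strand and in 10.3% of all promoters. NEAT1 had no entry in the table.

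Over the rest of MALAT1, EWS was the factor listed. In RWPE1 with wild-type ERG an EWS peak of 3393 bp ran from 65270613 to 65274005, that is from 5380 bp after the start to 65 bp past the annotated end. It covered 38.2% of the gene, all of it in parts 7 to 10 of 10 equal parts. It was the 5th widest of the 5703 peaks of its list and stood at number 130 in listed order, which is not documented as a ranking. A VCaP EWS peak from 65272224 to 65272723 lay wholly inside it. Neither ERG in VCaP nor ERG in RWPE1 had a peak there: after the peak at the start, the next VCaP ERG peak began 931 bp past the end of the gene. The 3′ part of MALAT1 thus had EWS in VCaP and in RWPE1 with wild-type ERG, and ERG in none of the 4 ERG lists. EWS with ERG P436A had no peak over MALAT1. In VCaP, EWS without ERG was the more frequent case: 10.3% of all VCaP EWS peaks overlapped a VCaP ERG peak. The share was 43.1% in the window and 32.6% in the rest of the 5 Mb. Of the 70 RWPE1 EWS peaks with a VCaP EWS peak, 6 also had one of VCaP ERG, which is a list of the other cell line. The share of all RWPE1 EWS peaks with an RWPE1 ERG peak is not given here.

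**Figure D3:**
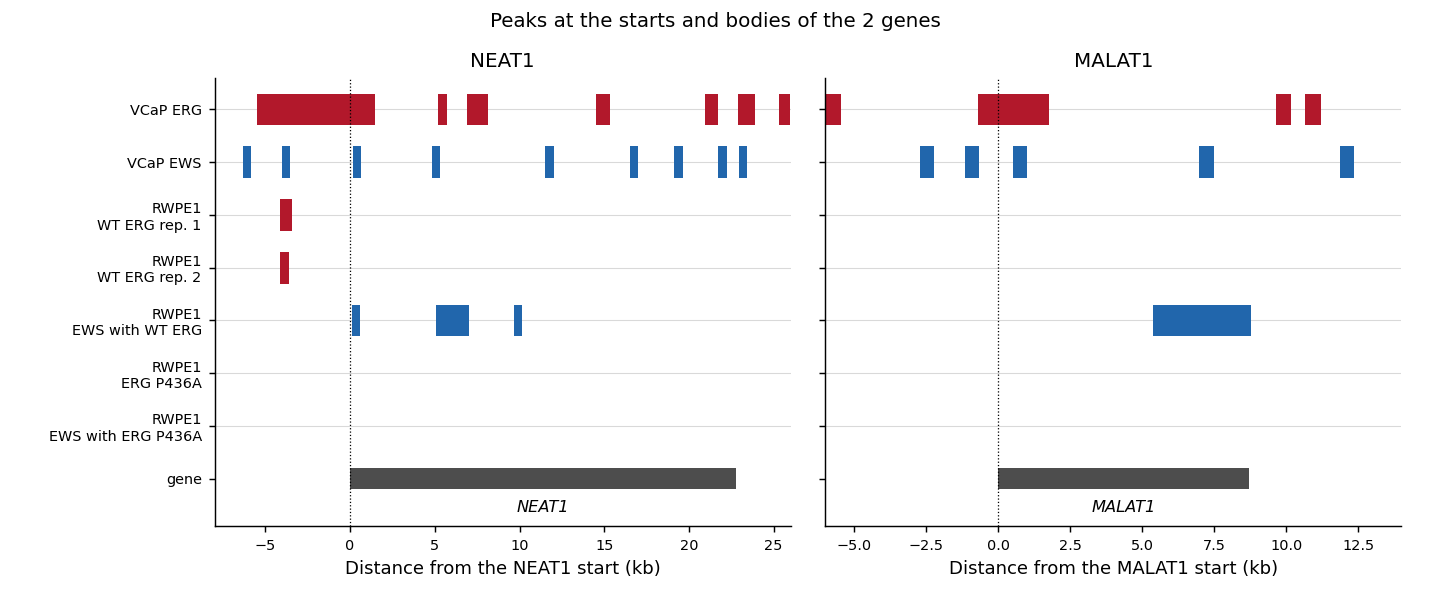
Peaks of the 7 lists (rows; red for ERG, blue for EWS) from 8 kb before to 26 kb after the NEAT1 start and from 6 kb before to 14 kb after the MALAT1 start, which dotted lines mark. The 2 RWPE1 ERG peaks stand before NEAT1 inside the widest VCaP ERG peak of the window, and the RWPE1 EWS peak of 3393 bp stands at the end of MALAT1.

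Per kb, NEAT1 held more VCaP ERG peaks than the window outside both genes, MALAT1 held fewer, and both held fewer VCaP EWS peaks than it. These rates rest on few peaks: MALAT1 had 1 VCaP ERG and 2 VCaP EWS peaks. By peak centre, NEAT1 had 4 VCaP ERG peaks in place of 5. By base pairs, VCaP ERG covered 21.1% of NEAT1 and 20.5% of MALAT1, beside 19.9% of the whole window. VCaP EWS covered 13.1% and 11.3%, beside 13.3%. VCaP ERG had 0.220 peaks per kb over NEAT1 and 0.115 over MALAT1, against 0.157 in the window outside both genes and 0.140 in the rest of the 5 Mb. VCaP EWS had 0.264 over NEAT1 and 0.230 over MALAT1, against 0.282 outside and 0.212 in the rest of the 5 Mb. In RWPE1 with wild-type ERG, EWS had 0.132 per kb over NEAT1 and 0.115 over MALAT1, and 0 peaks in the window outside both genes. With 1 list in each group and peaks that are not replicates, these densities were not tested against each other.

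**Figure D4:**
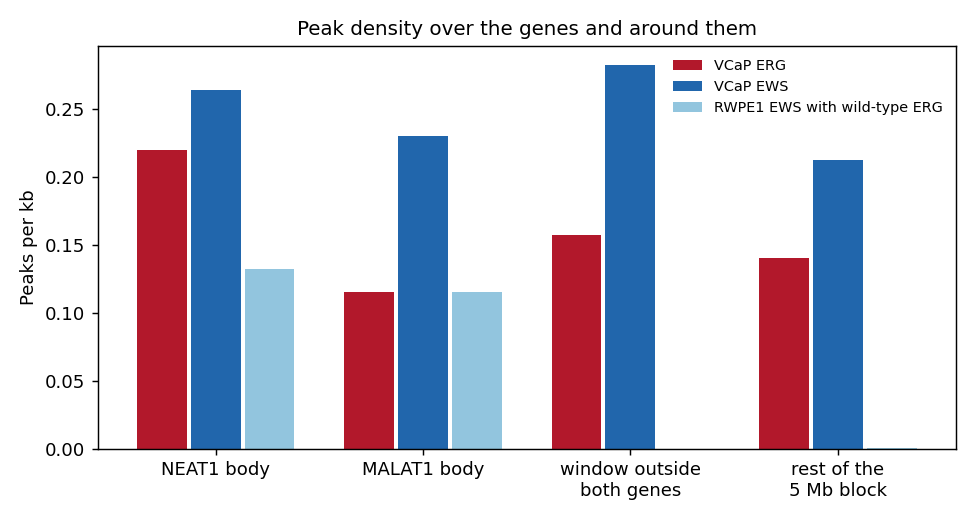
Peaks per kb over NEAT1, over MALAT1, in the window outside both genes and in the rest of the 5 Mb around it, for 3 lists. VCaP bars run from 0.115 to 0.282 over the 4 places, while RWPE1 EWS with wild-type ERG had 0.132 and 0.115 over the genes and 0 outside them in the window.

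In VCaP, 18 of the 30 ERG peaks of the window (60%; exact 95% binomial interval 40.6% to 77.3%) overlapped an EWS peak by at least 1 bp. Over the whole VCaP ERG list the share was 11.3%, and in the rest of the 5 Mb it was 42.7%. The difference from either was not tested. Of the 51 EWS peaks, 22 overlapped an ERG peak (43.1%; 29.3% to 57.8%), against 10.3% of the whole list and 32.6% in the rest of the 5 Mb. Over the gene bodies 3 of 6 ERG peaks and 3 of 8 EWS peaks overlapped the other factor. The intervals cover counting error only. They treat neighbouring peaks of 1 list as independent, which peaks that are not replicates need not be, so they serve as no test. The share fell with stricter definitions: with centres within 500 bp it was 10 of 30 (33.3%, against 26.6% in the rest of the 5 Mb), and requiring a reciprocal overlap of 0.5 left 1 of 30 (3.33%, against 7.86%). Over the whole VCaP ERG list these shares were 7.08% and 2.46%.

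The overlaps were often partial. Together the ERG and EWS peaks shared 5702 bp, which was 15.6% of the ERG-covered and 23.2% of the EWS-covered sequence of the window. EWS covered 13.3% and ERG 19.9% of the window as a whole. The share of ERG-covered sequence inside EWS peaks, 15.6%, thus stood beside 13.3% for the window at large, and the difference was not tested. The median distance from an ERG centre to the nearest EWS centre was 676.5 bp in the window and 1085 bp in the rest of the 5 Mb. From an EWS centre to the nearest ERG centre it was 1750 bp in the window and 1714.5 bp in the rest. The closest pair, with centres 82.5 bp apart, lay after MALAT1, with ERG from 65312002 to 65312499 and EWS from 65311918 to 65312418.

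Between NEAT1 and MALAT1, a stretch of 52221 bp, VCaP ERG had 7 and VCaP EWS 13 peaks that were not at a gene start. The first pair began just past the end of NEAT1, with ERG from 65213139 to 65214134 and EWS from 65213188 to 65213682. ERG then had its longest gap in the window, 21.756 kb, from 65216230 to 65237987, in which EWS had 6 peaks. The longest EWS gap was 10.08 kb, from 65234508 to 65244589. No RWPE1 list had a peak between the genes. After MALAT1 there were 11 ERG and 16 EWS peaks in VCaP, and before NEAT1 6 and 13.

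Peak width set the lists apart as well. In the window VCaP ERG peaks had a median of 971.5 bp and ran from 494 to 6957 bp, against a median of 719 bp over the whole list, and 13 of the 30 were wider than 1000 bp, where 23% of the list was. VCaP EWS peaks ran from 433 to 501 bp, with a median of 493 bp, and no peak of that list was wider than 501 bp. The EWS peaks of RWPE1 with wild-type ERG were 443, 489, 1975 and 3393 bp wide, while the median of that list was 500 bp. The P436A lists held no peak wider than 501 bp anywhere. The sources used here do not give the settings behind each list, so widths of different lists are not compared as binding.

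**Figure D5:**
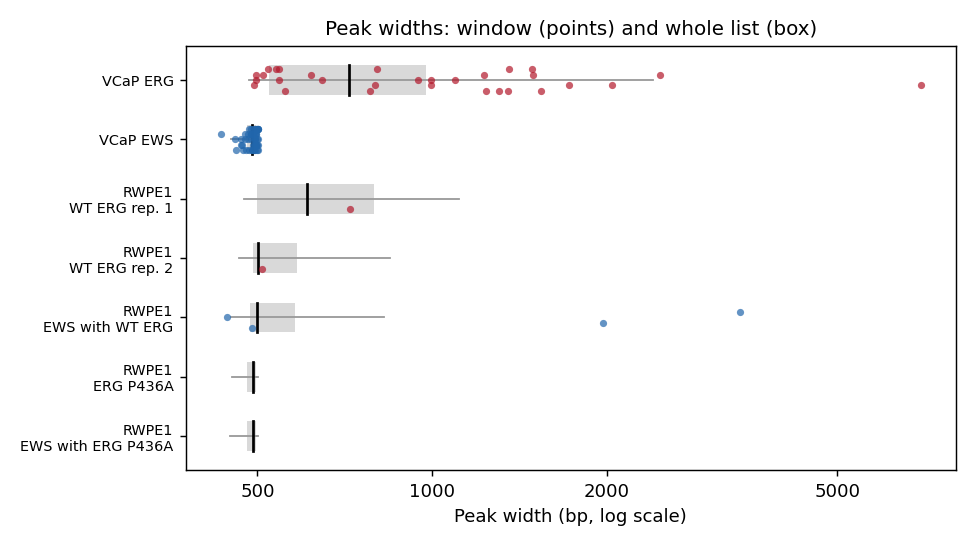
Width in bp, on a log axis, of each peak in the window (points; red for ERG, blue for EWS) over its list as a whole (line from the 5th to the 95th percentile, box from the 25th to the 75th, bar at the median). The VCaP ERG peaks of 2472 and 6957 bp and the RWPE1 EWS peaks of 1975 and 3393 bp lie beyond the 95th percentile of their lists.

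By peak counts of the 7 lists, the most similar window of the same length was on chromosome 11 as well, from 63848348 to 64032348, with 36 VCaP ERG, 32 VCaP EWS, 1 replicate 1 and 1 RWPE1 EWS peak and none of the other lists. Its distance was 1.80 on the log2(peaks + 1) scale over 7 lists. The next 4, at distances from 1.95 to 2.12, lay on chromosomes 8, 13, 5 and 11. Each of these 5 windows had 1 RWPE1 EWS peak with wild-type ERG, against 4 here. At the edges of the window, the outermost VCaP EWS peak (65139615 to 65140087) crossed the lower boundary, and the first peak beyond it ended 4515 bp before the boundary. The last VCaP ERG peak inside ended 3748 bp before the upper boundary, and the next one began 1349 bp after it.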

How the data were processed

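Peak lists of 7 ChIP samples were used, each with the 3 columns chromosome, start and end, as the authors deposited them, in base pairs of hg19. They hold no height, score or p-value. Alignment was with Bowtie2, version given as 0.12.8, as named in the submitters' processing notes. How peaks were called, and against which control, is not given in the sources used here. The 3 inputs (2 of VCaP, 1 of RWPE1) were not used here. DNA was sheared to about 150 nucleotides, with libraries of 200 to 300, per the labels' protocols. Depth is unknown, and list lengths cannot be read as amounts of binding.

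Deposited starts count from 0; printed positions count from 1. The window and gene positions were given with the task. The members, lists and rules were chosen with earlier results of these data known. Overlap meant at least 1 bp, a start region 1000 bp on each side, and intervals are exact (Clopper-Pearson, 95%). Windows of the same length were tiled from each chromosome's beginning to the last peak of any list. Peaks named were all RWPE1 peaks, those at gene starts, and the widest or first listed over each gene; others were chosen after their values were seen. No test was made, as no group but wild-type ERG had a replicate. Paraspeckle and speckle protein genes were not counted, since the gene table is of another build. The overlap count was tested on simulated data. Alternatives were other overlap rules, start regions, widths, list lengths and leaving out each replicate. Python 3.11.15, NumPy 2.4.6, SciPy 1.17.1 and matplotlib 3.10.9 were used.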

Additional observations from a re-analysis of the deposited data

How the results depend on the processing

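Of 140 alternative values, 119 were equal to the reported count or within 1.5 times of it, and 21 were not. They hold no test. Many of the 119 were counts of 0 that stayed 0, for which a limit of 1.5 times says nothing. The 119 is thus no measure of how stable the other counts were. With each list reduced to its first 1746 peaks, the length of the shortest, the window held 5 VCaP ERG, 18 VCaP EWS and 2 RWPE1 EWS peaks with wild-type ERG; the NEAT1 body then held 2 VCaP ERG peaks and 1 RWPE1 EWS peak, and the MALAT1 body 1 VCaP EWS peak. Listed order is not documented as a ranking. With peaks set to 500 bp, 0 VCaP ERG peaks lay at the NEAT1 start. With a start region of 5000 bp on each side, NEAT1 had 3 VCaP EWS peaks and 1 ERG peak in each RWPE1 replicate. With 500 bp on each side the MALAT1 start had 0 VCaP EWS peaks. VCaP ERG peaks with EWS, and EWS peaks with ERG, each numbered 10 with centres within 500 bp, 10 with peaks set to 500 bp and 1 with a reciprocal overlap of 0.5. Sites of 4 lists as before NEAT1 numbered 0, and sites of 3 lists as at the NEAT1 start 2, with peaks set to 500 bp and with centres within 500 bp, alternatives chosen after seeing the data. The mean of the wild-type ERG replicates was 1 peak in the window without replicate 1 and without replicate 2. The P436A lists had 0 peaks in the window under each alternative run. This outcome was fixed in advance and adds no support. The peaks nearest to the window lay 92150 bp (ERG P436A) and 334964 bp (EWS with ERG P436A) outside it, beyond the reach of any alternative. No paired analysis was possible because only 1 ChIP group has replicate numbers and no test was made. Read depth, which limits what a missing peak can show, is unknown.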
